A study of Mus musculus with 40 samples.

Results

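Lyve1, Prox1, Flt4, Pdpn, Mmrn1 and Reln, 6 genes of the lymphatic endothelium, are described here in the cervix and the myometrium of mice late in pregnancy. They are a list of names set by what the genes are known for and no measured value entered the rule, but earlier results of these data, the higher level in PBS myometrium among them, were known when the list was made. They make up 6 of the 23079 gene rows in the deposited count table. The study examined how human chorionic gonadotropin (hCG), the glycoprotein hormone of the placenta, alters gene expression in these 2 organs. Total RNA came from unsorted pieces of cervix and of myometrium, the muscular uterine wall, taken from pregnant C57BL/6 mice (an inbred strain) at 18.5 days post coitum, near delivery. The mice had received hCG, or PBS (phosphate-buffered saline) as the control, into the peritoneal cavity, and each of the 4 groups (cervix with PBS, cervix with hCG, myometrium with PBS, myometrium with hCG) holds 10 libraries. Neither the dose of hCG nor the time from injection to sampling is stated in the labels. No genotype other than the strain is given, and the labels do not say which libraries share an animal, so p-values measure only the spread between these libraries, which may be technical in part.

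Library totals lay between 5449239 and 25028360 counts, and the cervix libraries split into 10 deeper and 10 shallower ones. In 4 of the 10 PBS cervix libraries (5 to 8), 39190 to 206200 CPM (a gene's counts scaled to a common library size) belonged to the single gene Lars2, a mitochondrial leucyl-tRNA synthetase, against at most 1407 CPM in the other cervix libraries. In myometrium, Lars2 was also high in hCG library 3 (55400 CPM) and in PBS libraries 2 and 8 (60270 and 47640 CPM), against at most 7574 CPM in the others. The tissue labels held up against markers. The summed level of 10 squamous epithelium markers such as Krt5, a basal keratin, was 1406 to 61880 CPM in the cervix libraries and 4.001 to 46.4 CPM in the myometrium libraries. The summed level of 9 smooth muscle markers such as Acta2, a contractile actin, was 1052 to 25300 CPM in cervix and 11860 to 28710 CPM in myometrium. A lower level of any gene in such unsorted tissue can mean fewer cells of a type or less RNA per cell, and these cannot be told apart.

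Lymphatic vessels return fluid, proteins and immune cells from tissues to the blood. Their endothelium is specified by the transcription factor Prox1 and grows in response to vascular endothelial growth factors C and D, which signal through the receptor encoded by Flt4. Lyve1 encodes a hyaluronan receptor of initial lymphatic vessels that some tissue macrophages also carry. Pdpn encodes podoplanin, a mucin-type membrane protein of lymphatic endothelium that fibroblasts, mesothelium and some epithelia also make. Mmrn1 encodes multimerin 1, a secreted protein of endothelium and platelets. Reln encodes reelin, a secreted glycoprotein best known from the brain that lymphatic endothelium also releases. In the uterus, lymphatic vessels run mainly through the muscle layer and the serosal side.

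On GRCm38.p6, the genes lie at chr1:190118035-190170827 (Prox1, minus strand), chr11:49609679-49652739 (Flt4, plus), chr7:110850607-110862953 (Lyve1, minus), chr4:143267409-143299564 (Pdpn, minus), chr6:60944317-60989378 (Mmrn1, plus) and chr5:21884454-22344705 (Reln, minus). All 6 are protein coding. Annotated antisense transcripts overlap 133 exon bases of Prox1 (1.59% of its exons) and 246 exon bases of Reln (1.04%), and no source used here says whether counting used strand. RefSeq promoter windows matched 5 of the 6 genes, all but Lyve1. The 250 bases before the start are shown for 4 of them: Mmrn1 and Reln because their levels followed each other most closely across the cervix libraries, and Flt4 and Pdpn because they stood on opposite sides when set against blood endothelial markers. Capitals mark GGAA, the core recognised by ETS factors, on either strand (GGAA or TTCC), and each sequence reads 5′ to 3′ in the direction of its gene.
Mmrn1, chr6:60944067-60944316, plus strand: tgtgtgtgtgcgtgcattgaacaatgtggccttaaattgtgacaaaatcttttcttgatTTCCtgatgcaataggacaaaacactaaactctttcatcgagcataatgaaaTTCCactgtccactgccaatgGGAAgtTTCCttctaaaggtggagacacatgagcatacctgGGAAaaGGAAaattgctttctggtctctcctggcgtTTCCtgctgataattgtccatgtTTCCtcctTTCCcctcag
Reln, chr5:22344706-22344955, minus strand: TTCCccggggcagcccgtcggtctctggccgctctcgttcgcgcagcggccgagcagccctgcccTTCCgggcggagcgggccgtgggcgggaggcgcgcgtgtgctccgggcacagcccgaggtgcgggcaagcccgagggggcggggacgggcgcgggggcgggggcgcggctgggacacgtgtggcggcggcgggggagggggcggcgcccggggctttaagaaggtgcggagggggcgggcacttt
Flt4, chr11:49609429-49609678, plus strand: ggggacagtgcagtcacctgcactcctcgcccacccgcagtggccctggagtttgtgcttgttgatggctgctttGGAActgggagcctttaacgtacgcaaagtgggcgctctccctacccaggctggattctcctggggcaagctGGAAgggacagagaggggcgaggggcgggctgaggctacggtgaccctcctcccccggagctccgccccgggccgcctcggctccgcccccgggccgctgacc
Pdpn, chr4:143299565-143299814, minus strand: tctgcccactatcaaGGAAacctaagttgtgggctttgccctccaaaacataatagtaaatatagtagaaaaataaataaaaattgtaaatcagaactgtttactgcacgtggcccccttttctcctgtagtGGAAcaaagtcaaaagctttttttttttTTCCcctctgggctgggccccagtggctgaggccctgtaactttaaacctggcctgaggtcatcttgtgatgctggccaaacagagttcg

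The promoters of these genes had little in common beyond the short ETS core. Mmrn1 held 9 matches to GGAA, Pdpn 3, Flt4 2 and Reln 2, and the 2 annotated Prox1 windows held 2 and 5. At least 1 match occurs in 93.4% of the 32851 windows of the same length, the median is 3, and 0.51% of windows hold 9 or more. Base composition differed widely, with 42.4% G and C in the Mmrn1 window and 80% in that of Reln, the pair whose levels were most alike. The median over all windows was 52.4%, and 1.23% of windows reached 80% or more. GATAA (GATA factors; either strand, in 22.6% of windows) was found 1 time in Mmrn1, ACAAT (SOX factors; 27.7%) 3 times in Mmrn1 and 1 time in Pdpn, and TGACCT (nuclear receptors; 14.0%) 1 time in Pdpn. In Mmrn1, 1 base belonged to matches of more than 1 of these motifs. The other windows held none of these 3 letter strings.

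All 6 lymphatic genes were higher in myometrium than in cervix, with PBS and with hCG, and none passed the test for a change with hCG in either organ. For Lyve1, Flt4, Mmrn1, Prox1 and Reln the difference between organs was 3.85-fold to 6.87-fold, and every cervix library lay below every myometrium library. Pdpn differed least, by 1.80-fold with PBS and 1.57-fold with hCG, and its ranges overlapped. Here and below, a gene is said to differ where edgeR's quasi-likelihood test gives an adjusted p under 0.05 over all genes tested. Between the organs 54% of 14545 genes passed with PBS and 43.7% of 14974 with hCG. Of all genes tested, 26.1% with PBS and 19.4% with hCG were higher in myometrium, beside 6 of 6 here, and 28% and 24.3% were higher in cervix.

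**Figure D1:**
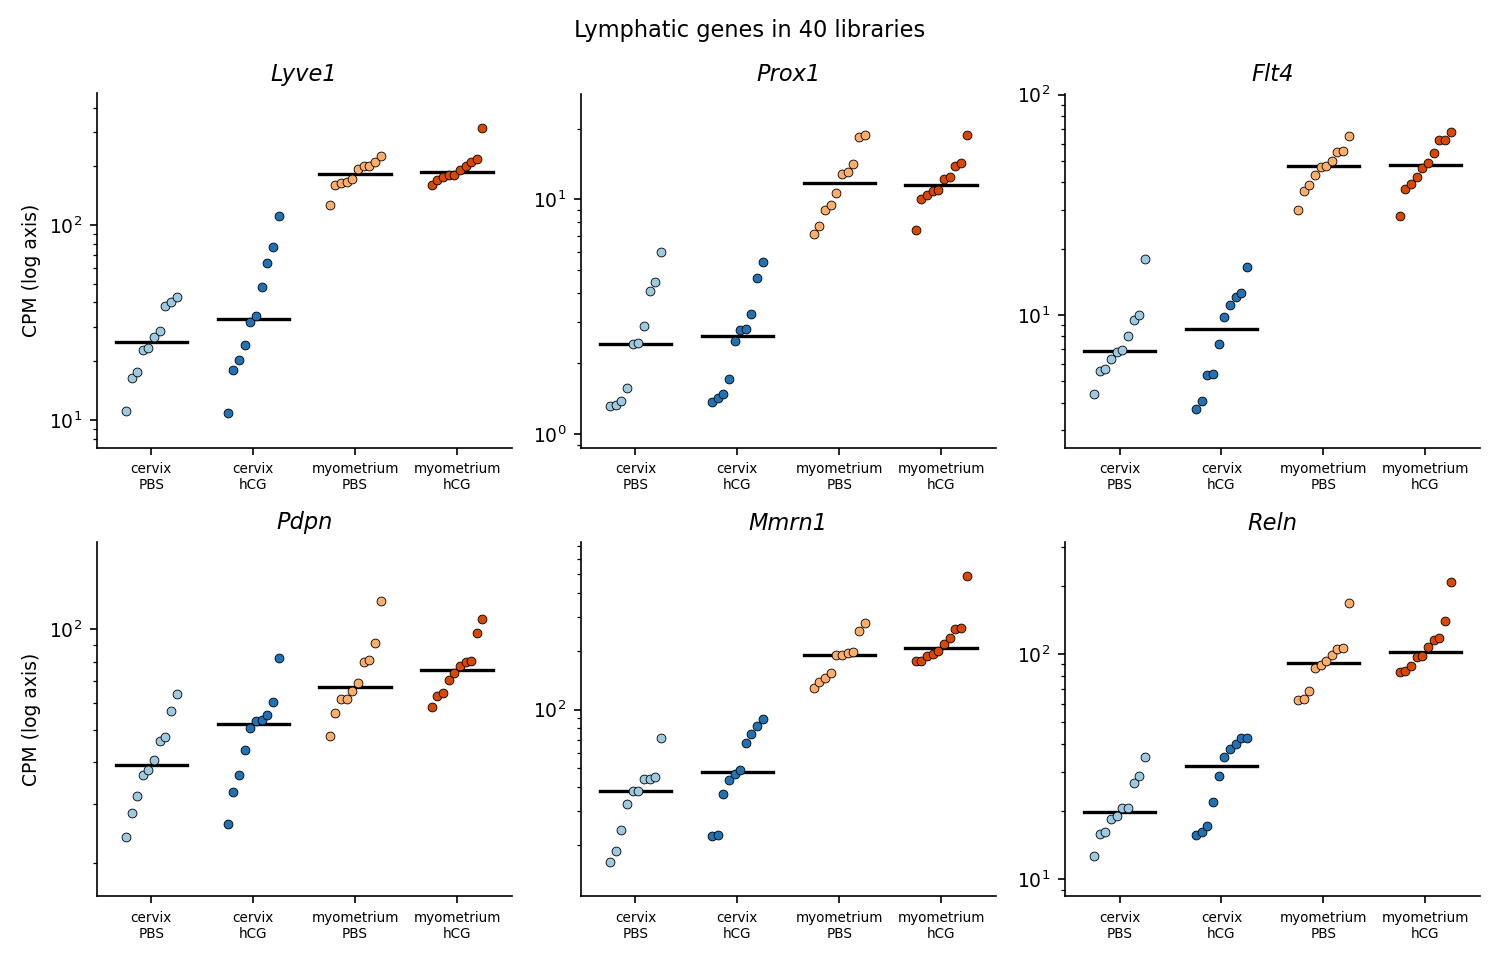
Level of each lymphatic gene (CPM, log axis) in each of the 40 libraries, sorted by value within the 4 groups of 10. Each point is 1 library and each bar the group median. For all genes but Pdpn, the 20 cervix libraries lie below the 20 myometrium libraries, and the PBS and hCG points of an organ overlap.

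Prox1, the transcription factor that specifies lymphatic identity, was the least abundant of the 6 in every group. In the PBS libraries it ran from 1.31 through a median of 2.43 to 5.97 CPM in cervix and from 7.15 through 11.7 to 18.8 CPM in myometrium. The lowest myometrium library was thus just above the highest cervix library. The group means were 2.79 ± 1.58 and 12.1 ± 4.12 CPM (SD, n = 10), 4.48-fold apart (95% interval 2.93 to 6.85, edgeR adjusted p = 2.24e-06). With hCG, cervix spanned 1.37 to 5.40 CPM (median 2.63) and myometrium 7.41 to 18.9 CPM (median 11.6), again without overlap, and 4.42-fold apart (edgeR adjusted p = 5.93e-07). The lowest raw count of Prox1 in any library was 10, so its cervix values carry the largest counting error of the 6.

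Flt4 encodes the receptor tyrosine kinase for VEGF-C and VEGF-D. With PBS, its cervix libraries ran from 4.37 through 6.87 to 17.97 CPM and its myometrium libraries from 29.97 through 47.3 to 64.8 CPM. Every myometrium library exceeded every cervix library, and the means of 8.12 ± 3.88 and 46.8 ± 10.2 CPM (SD, n = 10) differed 5.85-fold (95% interval 4.27 to 7.999, edgeR adjusted p = 2.33e-09). With hCG, the ranges were 3.75 to 16.6 CPM (median 8.60) in cervix and 28.1 to 67.5 CPM (median 47.9) in myometrium. These stood apart too, by 5.56-fold (edgeR adjusted p = 1.6e-07).

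Lyve1, the hyaluronan receptor, showed the largest difference between the organs with PBS. Its PBS libraries ran from 11.1 through 24.98 to 42.5 CPM in cervix and from 127 through 183 to 224 CPM in myometrium. The means were 26.7 ± 10.7 and 182 ± 29.3 CPM (SD, n = 10), a 6.87-fold difference (95% interval 5.13 to 9.20, edgeR adjusted p = 1.96e-10). With hCG, the cervix libraries spread from 10.8 through 32.8 to 112 CPM, and those of myometrium from 159.8 through 186 to 315 CPM. Relative to its mean, the spread of Lyve1 was widest in the hCG cervix (coefficient of variation 72.2%, against 39.9% in PBS cervix and 22.0% in hCG myometrium), yet its highest library there still lay below the lowest myometrium library of either treatment. The fold was 4.56 with hCG (95% interval 2.84 to 7.32, edgeR adjusted p = 1.82e-05).

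Pdpn, the podoplanin gene, was the exception in size. With PBS it ran from 23.8 through 39.2 to 63.9 CPM in cervix and from 47.8 through 67.3 to 122 CPM in myometrium. All 10 cervix libraries lay below the myometrium median, but the ranges overlapped. The means of 41.4 ± 12.6 and 73.7 ± 21.3 CPM (SD, n = 10) differed 1.80-fold (95% interval 1.41 to 2.31, edgeR adjusted p = 0.000265). With hCG it ran from 26.1 through 51.9 to 82.1 CPM in cervix and from 58.6 through 75.8 to 107 CPM in myometrium, 1.57-fold apart (edgeR adjusted p = 0.00306), and 9 of 10 cervix libraries lay below the myometrium median. Among the counts of the 6 genes, Pdpn took 30.6% ± 6.17 in PBS cervix and 12.4% ± 2.85 in PBS myometrium (SD, n = 10), while Lyve1 took 19.1% ± 4.09 and 30.7% ± 2.72.

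The secreted proteins followed the pattern of Lyve1 and Flt4. Mmrn1, multimerin 1, ran from 16.4 through 37.9 to 71.0 CPM in PBS cervix and from 129.5 through 191 to 279 CPM in PBS myometrium. Its means of 37.1 ± 15.9 and 188 ± 48.9 CPM (SD, n = 10) were 5.12-fold apart (edgeR adjusted p = 9.56e-09). Reln, reelin, ran from 12.6 through 19.9 to 35.1 CPM in PBS cervix and from 62.3 through 91.6 to 169 CPM in PBS myometrium. Neither gene had a cervix library within the myometrium range. The Reln means of 21.4 ± 6.80 and 94.3 ± 30.8 CPM (SD, n = 10) were 4.44-fold apart (edgeR adjusted p = 5.33e-09). With hCG, Mmrn1 spanned 22.3 to 89.1 CPM (median 47.5) in cervix and 177 to 487 CPM (median 209) in myometrium, 4.53-fold apart (edgeR adjusted p = 9.83e-07). Reln spanned 15.8 to 42.6 CPM (median 31.8) and 83.5 to 209.6 CPM (median 103), 3.85-fold apart (edgeR adjusted p = 5.78e-07). The hCG cervix libraries of both genes again stayed below the myometrium range.

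Across both treatments together, 5 of the 6 genes had all 20 cervix libraries below all 20 myometrium libraries, an arrangement found for 2.09% of 15624 genes. Within 1 treatment, 7.13% of genes with PBS and 4.39% with hCG had all 10 cervix libraries below all 10 of myometrium. Since the genes were listed with the direction in the PBS libraries known, these counts describe them and are no independent evidence. A difference of at least 4-fold with an adjusted p under 0.05 was found for 5 of the 6 with PBS, against 3.31% of all genes, and for 4 of the 6 with hCG, against 2.62%. The median log2 difference (cervix minus myometrium) over the 6 was -2.26 with PBS and -2.16 with hCG, beside 0.04 and 0.07 over all genes tested. Leaving out each library in turn changed no call of the 6 between the organs, nor did leaving out the 4 PBS cervix libraries high in Lars2 (log2 differences from -2.81 for Lyve1 to -0.80 for Pdpn). The largest shifts were those of Flt4 with PBS, to -2.76 without PBS cervix library R3, and of Lyve1 with hCG, from -2.19 to -2.46 without hCG cervix library 3.

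Per kilobase of exon, which allows levels of different genes to be compared, Lyve1 and Pdpn led in every group. In PBS myometrium the mean was 62.2 ± 10.0 CPM per kb for Lyve1, 40.6 ± 11.7 for Pdpn, 31.9 ± 8.33 for Mmrn1, 5.69 ± 1.24 for Flt4, 3.97 ± 1.297 for Reln and 1.45 ± 0.490 for Prox1 (SD, n = 10). In PBS cervix Pdpn came first with 22.8 ± 6.92 CPM per kb, followed by Lyve1 with 9.16 ± 3.66 and Mmrn1 with 6.33 ± 2.70. Flt4, Reln and Prox1 followed at 0.986 ± 0.471, 0.903 ± 0.286 and 0.332 ± 0.189 CPM per kb. The order of Lyve1 and Pdpn was thus opposite in the 2 organs, while Flt4 and Reln in cervix differed by less than their spread. Pecam1, a general endothelial adhesion protein, had 10.2 ± 3.19 CPM per kb in PBS cervix and 27.6 ± 2.99 in PBS myometrium.

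hCG was tested in each organ against PBS. In the cervix 0 of the 6 genes passed, against 8.91% of 14932 genes, and 2 of the 6 (Lyve1 and Reln) had an unadjusted p under 0.05, against 29.2% of all genes. Every fitted difference was above 0, with a median of 0.39 on the log2 scale beside 0.01 over all genes. Markers of other cells had medians of the same sign, 0.61 for macrophages (11 of 11 above 0), 0.38 for smooth muscle (9 of 9), 0.33 for fibroblasts (8 of 9) and 0.27 for blood endothelium (10 of 12), while that of squamous epithelium was -1.46. The largest medians were those of urothelium (3.69, 4 of 4 above 0), skeletal muscle (3.46, 6 of 6) and adipocyte markers (2.36, 6 of 6). Lyve1 had the largest estimate, 0.75 (SE 0.35, 95% interval 0.01 to 1.48, edgeR adjusted p = 0.163), and it passed only where all 40 libraries shared 1 fit (log2 difference 0.74, edgeR adjusted p = 0.0471; from 0.0471 to 0.892 over its alternatives). Mmrn1 followed with a log2 difference of 0.55 (95% interval -0.02 to 1.11, edgeR adjusted p = 0.189) and Reln with 0.50 (0.04 to 0.96, edgeR adjusted p = 0.139). The intervals thus reach from almost no difference to a 2.79-fold higher level for Lyve1. Pdpn was at 0.28 (-0.12 to 0.68), Flt4 at 0.14 (-0.46 to 0.74) and Prox1 at 0.01 (-0.68 to 0.70) on the log2 scale. For each gene 6 or 7 of the 10 hCG libraries lay above the PBS median, so the treatments overlapped throughout.

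The upper end of the hCG cervix group rested on a few libraries. hCG cervix library 3 had the highest Lyve1 (112 CPM), Flt4 (16.6 CPM) and Prox1 (5.40 CPM) of its group, and hCG cervix library 5 the highest Pdpn (82.1 CPM) and Mmrn1 (89.1 CPM). The same libraries had 119 and 399 CPM of the urothelial gene Upk3a, which was at most 24.9 CPM in every other library, and the lowest squamous marker sums of the cervix (1692 and 1406 CPM). Without both, the log2 difference was 0.25 for Lyve1 (edgeR adjusted p = 0.677), 0.30 for Mmrn1 (0.553) and 0.35 for Reln (0.39), and it was below 0 for Prox1 (-0.12) and Flt4 (-0.13). Without library 3 alone, that of Lyve1 was 0.48. Within the deeper cervix libraries (6 hCG, 4 PBS) the estimates ran from 0.35 for Pdpn to 1.08 for Lyve1, and within the shallower ones (4 hCG, 6 PBS) from -0.51 for Prox1 to 0.31 for Lyve1, with no call in either. Without the 4 PBS cervix libraries high in Lars2 they ran from 0.19 for Flt4 to 0.77 for Lyve1, again with no call.

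In the myometrium 0 of the 6 genes passed either, where 0.0138% of 14517 genes (2 genes) did, and 0 of the 6 had an unadjusted p under 0.05, against 15.5% of all genes. The estimates were smaller and better bounded than in the cervix. Mmrn1 had the largest, 0.36 on the log2 scale (95% interval -0.01 to 0.73, edgeR adjusted p = 0.335), followed by Reln at 0.28 (-0.09 to 0.65). Lyve1 was at 0.15 (-0.09 to 0.39), Pdpn at 0.08 (-0.22 to 0.37), Flt4 at 0.07 (-0.24 to 0.38) and Prox1 at 0.01 (-0.36 to 0.37). hCG myometrium library 8 held the highest Lyve1, Prox1, Pdpn, Mmrn1 and Reln of its group, and without it the log2 difference of Mmrn1 was 0.18 and that of Reln 0.13.

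The difference between the hCG responses of the organs was tested in a fit of all 40 libraries. It passed for 0 of the 6 genes, against 0.352% of 15624 genes, and 0 of the 6 had an unadjusted p under 0.05, against 20% of all genes. The largest difference (cervix response minus myometrium response) was that of Lyve1, 0.59 on the log2 scale (95% interval -0.18 to 1.36, edgeR adjusted p = 0.388). For Prox1 it was 0.01 (-0.74 to 0.77, edgeR adjusted p = 0.992). In each gene's order of levels the organs differed by the test, with overlapping ranges for Pdpn, and for no gene was a difference between the 2 treatments of an organ called.

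**Figure D2:**
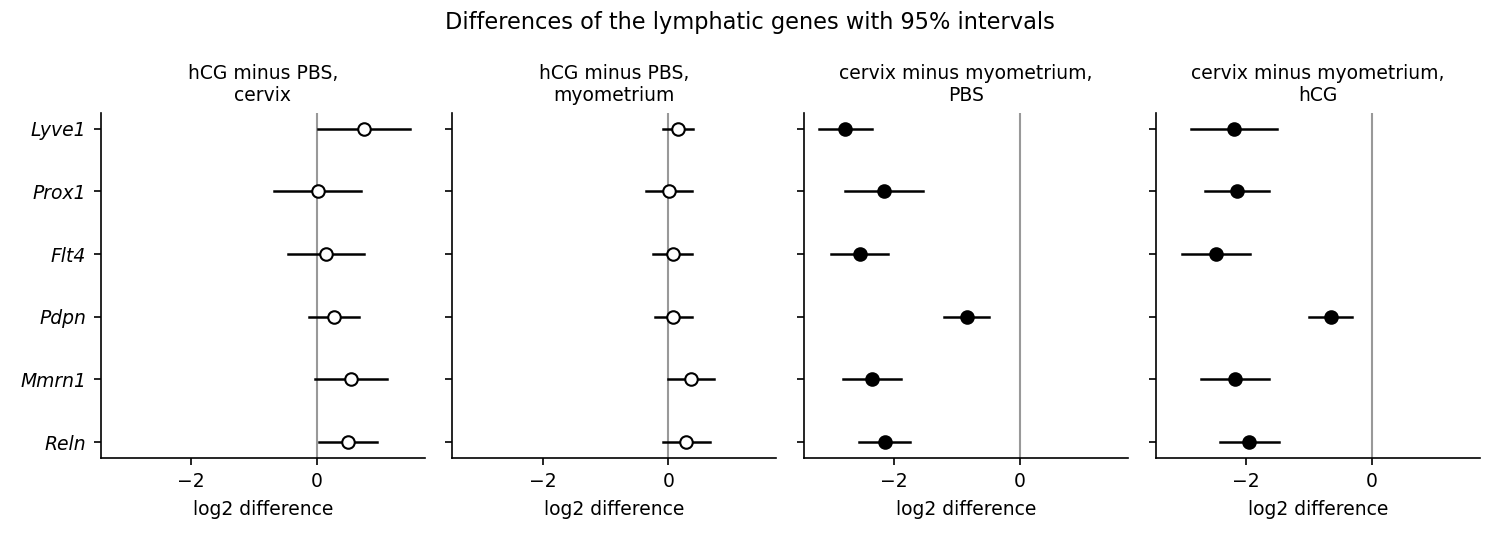
Log2 differences of the 6 lymphatic genes in the 4 comparisons (x axis), with 95% intervals as lines; filled points passed the test and open points did not. The differences between organs lie between -2.78 and -0.65, and the hCG differences between 0.01 and 0.75 with intervals at or across 0, apart from those of Lyve1 and Reln in cervix, whose lower ends lie just above it.

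The 12 blood endothelial markers are general genes of vessel endothelium such as Pecam1 and Cdh5 (VE-cadherin). Of them, 3 are also in the list of lymphatic receptors used below and 2 in that of valve and junction genes. They thus do not mark blood vessels alone. These markers were also higher in myometrium, 11 of 12 with either treatment. Their median log2 difference was -1.45 with PBS and -1.16 with hCG, and their summed level was 230.2 to 497 CPM in PBS cervix and 632 to 1012 CPM in PBS myometrium. The lymphatic genes were therefore compared with the mean log2 CPM of these markers in the same library, by two-sided permutation tests with 100000 resamples, adjusted over 24 tests. Of the 6 genes, 5 were lower in cervix than in myometrium by this measure too. It was taken for these 6 genes alone, so no share over all genes stands beside this count or the overlaps of ranges below. The shares given for CPM do not apply to it. Lyve1 was 0.49 ± 0.55 above the markers in PBS cervix and 2.05 ± 0.27 above them in PBS myometrium (log2, SD, n = 10), a difference of -1.56 (permutation, adjusted p = 0.00012). Flt4 lay 1.21 log2 units under the markers in PBS cervix (-1.21 ± 0.28) and level with them in PBS myometrium (0.08 ± 0.20), a difference of -1.29 (permutation, adjusted p = 0.00012). For these 2 genes the libraries of the organs did not overlap.

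The same held with smaller steps for the secreted proteins and Prox1. The differences with PBS were -1.12 for Mmrn1 (permutation, adjusted p = 0.00032), -0.88 for Prox1 (0.00494) and -0.84 for Reln (0.0008). With hCG they were -1.37 for Lyve1, -1.45 for Flt4, -1.13 for Mmrn1, -1.08 for Prox1 and -0.86 for Reln (permutation, adjusted p from 0.00012 to 0.0008). Pdpn went the other way, at 1.17 ± 0.54 above the markers in PBS cervix and 0.72 ± 0.38 in PBS myometrium, a difference of 0.45 that did not pass (permutation, adjusted p = 0.105). With Pecam1, Cdh5 and Tie1 as the reference in place of all 12, Pdpn was 0.80 higher in PBS cervix (permutation, adjusted p = 0.00642) and the Prox1 difference of -0.53 did not pass (0.0904). The other PBS differences shrank to -1.21 for Lyve1, -0.94 for Flt4, -0.77 for Mmrn1 and -0.49 for Reln. They still passed (permutation, highest adjusted p 0.0297, for Reln). The size of these differences thus depended on the markers chosen. None of the 6 passed between hCG and PBS in either organ by this measure, the smallest adjusted p being 0.168 for Mmrn1 in myometrium (permutation).

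**Figure D3:**
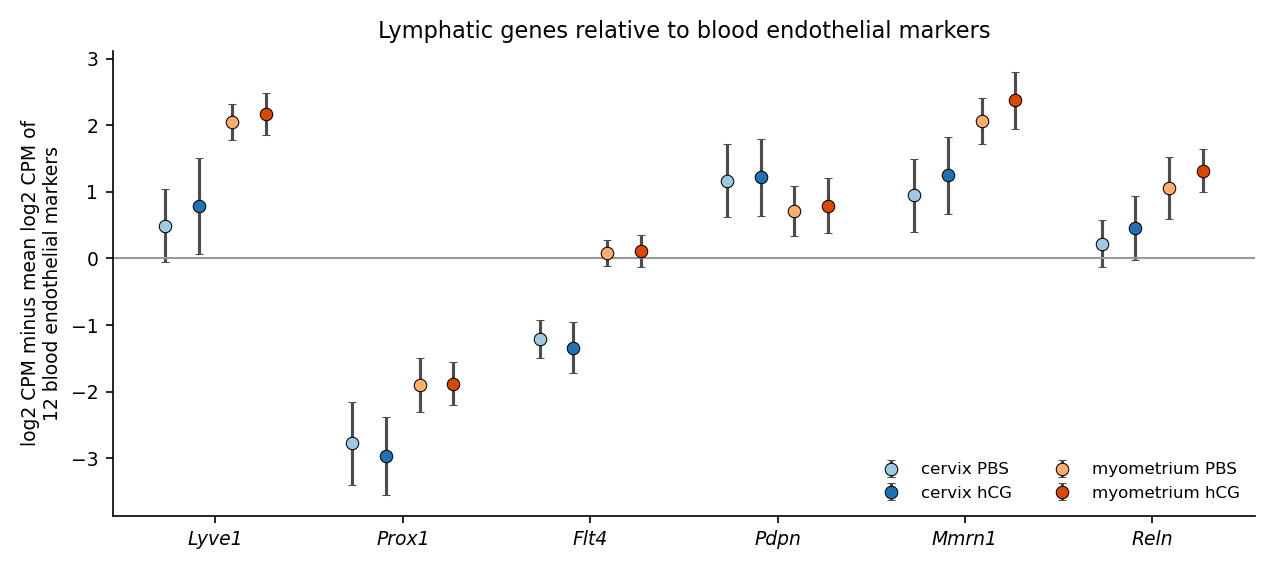
Level of each lymphatic gene relative to general endothelial genes: its log2 CPM minus the mean log2 CPM of the 12 blood endothelial markers (y axis). Points are the mean ± SD of 10 libraries per group. Flt4 moves from -1.21 in PBS cervix to 0.08 in PBS myometrium, and Pdpn is the gene whose cervix means lie above its myometrium means.

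Other cell types carry some of these genes. Macrophage markers such as Csf1r, the CSF1 receptor, were higher in myometrium in 10 of 11 tested with PBS and 9 of 12 with hCG, with summed levels of 169 to 1154 CPM in cervix and 939 to 1759 CPM in myometrium. Across the 20 cervix libraries, the log2 CPM of Lyve1 followed that of the macrophage markers (r = 0.797) and of the mesothelium markers (r = 0.812). In myometrium it did so less closely (0.305 and 0.348). This was not particular to Lyve1 or to these lists. In cervix Lyve1 had r = 0.692 with the blood endothelial markers. Mmrn1 had 0.716 and 0.72 there with the macrophage and mesothelium markers, while Prox1 had 0.074 and 0.266. Pdpn followed the fibroblast markers in cervix (r = 0.722) and the mesothelium markers in myometrium (r = 0.62), and blood endothelial markers in neither (0.189 and 0.163). Flt4 followed the blood endothelial markers in both organs (0.89 and 0.798). In cervix it also followed the smooth muscle (r = 0.774) and mesothelium markers (0.71), and it ran against the squamous markers (-0.677). These coefficients describe 20 libraries that share depth, scaling and tissue make-up, and every macrophage, fibroblast and blood endothelial marker had counts in every library. The mesothelium markers Msln and Lrrn4 were at 0 in 1 PBS cervix library and Bnc1 in 1 PBS myometrium library. Fibroblast markers were higher in myometrium in 5 of 9 with PBS and 4 of 9 with hCG, and mesothelium markers in 6 and 5 of 7, with 1 higher in cervix each time. The part of these cells in the Lyve1 and Pdpn levels was not tested.

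**Figure D4:**
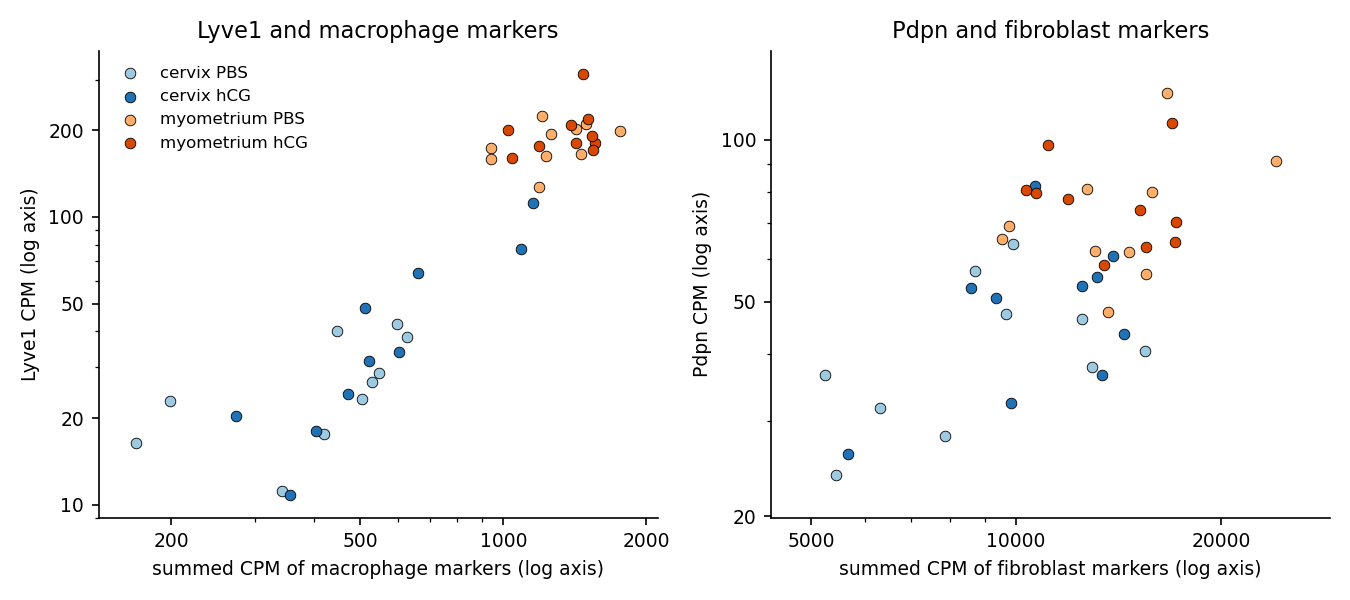
Lyve1 (left) against the summed CPM of macrophage markers and Pdpn (right) against that of fibroblast markers, 1 point per library, log axes. The hCG cervix library with the highest Lyve1 (112 CPM) also has the highest macrophage sum of the cervix (1154 CPM), and the organs overlap more for Pdpn than for Lyve1.

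RNA of neighbouring tissues also differed between groups. The 8 tested markers of yolk sac and fetal liver, fetal tissues that make serum proteins such as Afp, were higher in myometrium with either treatment, with a summed level of up to 31980 CPM there and up to 226 CPM in cervix. Without the 8 myometrium libraries above 1000 CPM of Afp, all 6 lymphatic genes kept their call between the organs. In hCG cervix, all 4 urothelium markers were called higher than with PBS (median log2 difference 3.69) and 2 of 10 squamous markers lower. The urothelium difference rested on few libraries. The median urothelium sum was 16.7 CPM in PBS cervix and 17.2 CPM in hCG cervix, while hCG libraries 5, 3 and R3 had 2143, 575 and 168 CPM. Skeletal muscle markers summed to 3736 CPM in hCG cervix library 1, beside a group median of 88.9 CPM. That library also had the lowest smooth muscle sum of the cervix (1052 CPM). The hCG libraries behind the highest lymphatic values were also those highest in urothelium markers (library 5) and adipocyte markers (library 3), and the part of these tissues in the lymphatic values was not tested beyond leaving those libraries out.

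How the 6 genes varied together was examined within each organ, over log2 CPM centred on the treatment mean. Of 15 pairs, 8 passed in cervix and 8 in myometrium (Pearson r, permutation within treatment, adjusted p over 30 relations under 0.05). By Spearman's rho 7 passed in each. No share of passing pairs among other genes was taken, so these counts do not say that the 6 vary together more than others. Libraries of an organ share much of their variation, and many genes outside the 6 matched these coefficients: among the 15623 other genes, Flt4 ranked 872nd for its likeness to Lyve1 in cervix (r = 0.606) and Reln 1682nd for its likeness to Flt4 (0.544), both pairs that passed. The closest pair was Mmrn1 and Reln in cervix, with r = 0.854 and rho = 0.85 over 20 libraries (permutation, adjusted p = 0.0003 and 0.0006). By the same ranking Mmrn1 came 4th for Reln and Reln 38th for Mmrn1. The pair had r = 0.792 without the 2 libraries farthest from the median of Mmrn1, and 0.775 and 0.915 within the deeper and the shallower libraries. For every pair, these 2 libraries were chosen by 1 gene alone, the earlier in the order Lyve1, Prox1, Flt4, Pdpn, Mmrn1, Reln. Libraries extreme only in the other gene of the pair thus stayed in. Lyve1 and Mmrn1 were next in cervix (r = 0.82, rho = 0.854, permutation, adjusted p = 0.0003 and 0.0006; 0.778 without 2 libraries; 0.87 and 0.821 within the depth classes) and first in myometrium (r = 0.761, rho = 0.63, permutation, adjusted p = 0.00515 and 0.0223; 0.553 without 2 libraries).

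The transcription factor and the receptor, Prox1 and Flt4, had r = 0.607 and rho = 0.564 in cervix (permutation, adjusted p = 0.0165 and 0.0331; 0.536 without 2 libraries; 0.492 and 0.62 within the depth classes) and r = 0.741 and rho = 0.717 in myometrium (permutation, adjusted p = 0.0012 and 0.00345; 0.722 without 2 libraries). In cervix many genes were closer to either, Flt4 ranking 346th of 15623 for Prox1 and Prox1 1125th for Flt4, and in myometrium the ranks were 51 and 43. Pdpn passed with neither of them. Prox1 and Pdpn had r = -0.219 in cervix (rho = -0.135, permutation, adjusted p = 0.402 and 0.597) and 0.154 in myometrium (rho = 0.206, permutation, adjusted p = 0.575 and 0.463). Pdpn passed with Mmrn1 in both organs (r = 0.624 and 0.586, rho = 0.57 and 0.559, permutation, adjusted p = 0.0157 and 0.0168 for r) and with Lyve1 in both, r being 0.561 in cervix (rho = 0.595, permutation, adjusted p = 0.0302) and in myometrium 0.742 (rho = 0.75, permutation, adjusted p = 0.0012 and 0.0025; 0.632 without 2 libraries). For likeness to Lyve1, Pdpn ranked 1153rd of 15623 genes in cervix and 5th in myometrium. For likeness to Mmrn1 its ranks were 940 and 368. The myometrium relation of Mmrn1 and Reln (r = 0.715, permutation, adjusted p = 0.00681) rested on few libraries, since rho was 0.486 (adjusted p = 0.0676) and r was 0.335 without 2 libraries.

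**Figure D5:**
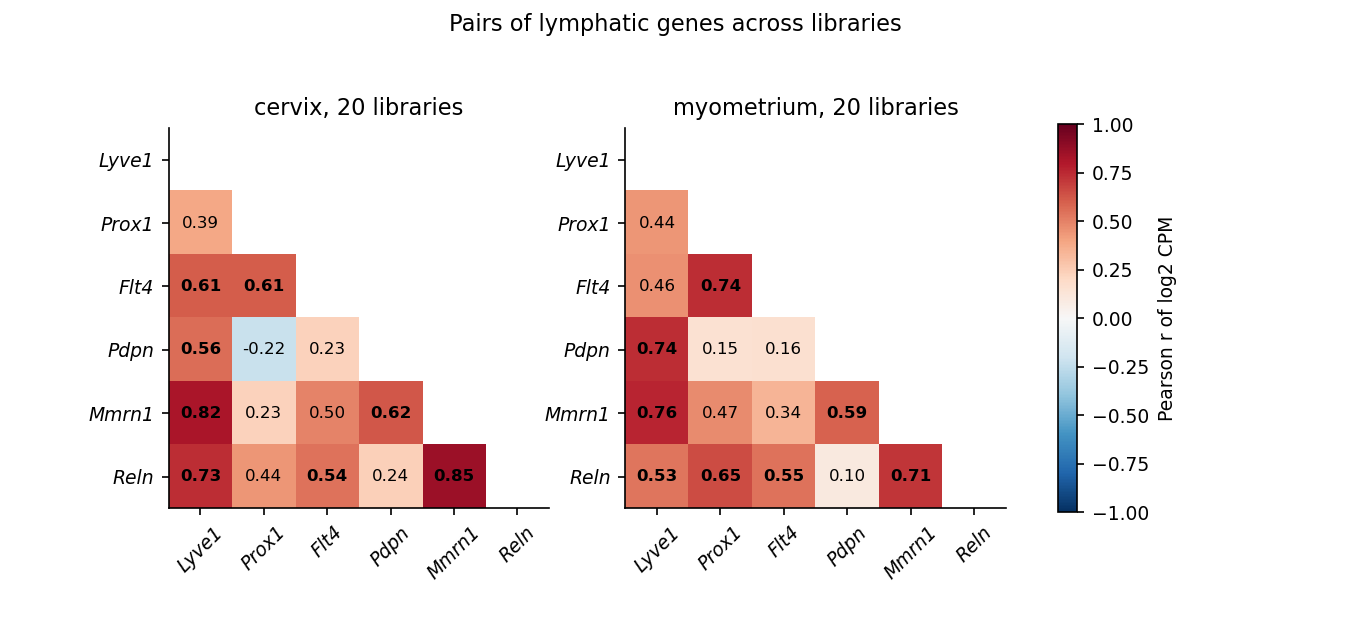
Pearson r of log2 CPM, centred on the treatment mean, for each pair of lymphatic genes over the 20 libraries of cervix (left) and of myometrium (right). Bold values passed at an adjusted p under 0.05; the coefficients run from -0.22 to 0.85 in cervix and from 0.10 to 0.76 in myometrium.

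Over all 40 libraries, with log2 CPM centred on the 4 group means, each gene was also compared with 14732 others, as a description. The values were not scaled within groups, so groups with a wider spread weigh more in r. For Lyve1 the coefficient of variation was 72.2% in hCG cervix and 16.1% in PBS myometrium. Whether the same genes are nearest within each organ was not examined. Lyve1 was most like S1pr1, a receptor for sphingosine 1-phosphate (r = 0.883), and Fli1, an ETS factor of endothelium and blood cells (0.874), followed by Ildr2, Hoxd8 and Tek (0.834, 0.834 and 0.833). Mmrn1 was most like Pros1, which encodes the anticoagulant protein S (0.9), then Fgl2, Tek, C1s2 and Pkhd1l1 (0.89, 0.852, 0.845 and 0.84). Flt4 was most like Dbn1 (0.861), Selenon (0.859), Lrrc32 (0.84), Tie1 (0.839), an endothelial receptor, and Syde1 (0.822). Those closest to Prox1 were Epas1, a hypoxia-inducible factor abundant in endothelium (0.745), Arhgef15 (0.739), Npas2 (0.736), Wipf3 (0.726) and Elmo1 (0.721). Reln had Klf9 (0.835), Abca1 (0.815), Adamts5 (0.782), Fzd7 (0.776) and Gbp9 (0.773) nearest to it. The nearest to Pdpn were Calm2 (0.813), a calmodulin gene, Dcn (0.769), the fibroblast proteoglycan decorin, Fam216a (0.758), Eif1b (0.754) and Arf2 (0.747). By Spearman's rho, 2 of the 5 nearest genes were kept for Prox1 and for Pdpn, 3 for Lyve1, Mmrn1 and Reln, and 4 for Flt4.

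Other genes of the lymphatic pathway were taken from 4 lists. Of 9 tested genes for ligands and their processing, 6 were higher in myometrium with PBS and 6 with hCG, with Angpt1, the angiopoietin that activates Tek, higher in cervix each time. Vegfd, the gene of VEGF-D, ran from 3.76 through 15.9 to 37.0 CPM in PBS cervix and from 28.1 through 80.8 to 138 CPM in PBS myometrium. Its log2 difference (cervix minus myometrium) was -2.07 with PBS (SE 0.34, edgeR adjusted p = 2.82e-05) and -1.75 with hCG (SE 0.21, edgeR adjusted p = 1.17e-06). The main ligand gene Vegfc was scarcer, from 0.798 through 2.03 to 3.87 CPM in PBS cervix and from 2.58 through 3.28 to 13.7 CPM in PBS myometrium. Its log2 difference was -1.17 with PBS (SE 0.32, edgeR adjusted p = 0.00372) and -0.84 with hCG (SE 0.28, edgeR adjusted p = 0.0179), and the latter call was lost without the myometrium libraries high in Afp (-0.65, edgeR adjusted p = 0.184). The PBS call held in every alternative, but the difference shrank to -0.67 at its smallest. It was -0.83 without PBS myometrium library 4, which had the highest Vegfc of its group and 11840 CPM of Afp. Svep1, an extracellular matrix protein needed for lymphatic development, was lower in cervix by a log2 difference of -2.14 with PBS (edgeR adjusted p = 2.17e-06) and -1.51 with hCG (edgeR adjusted p = 1.45e-06), and Angpt1 stood at 1.36 and 1.48 (edgeR adjusted p = 1.79e-05 and 0.00111). With hCG, Adm, adrenomedullin, was lower in cervix (-0.88, edgeR adjusted p = 0.000213).

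Receptors showed the same direction more broadly. Of 15 tested, 13 were higher in myometrium with PBS and 11 with hCG, and Cd44, a widely expressed hyaluronan receptor related to Lyve1, was higher in cervix both times. With PBS, the smallest p-values belonged to Tek, the angiopoietin receptor (log2 difference -1.61, edgeR adjusted p = 3.71e-09), S1pr1 (-1.82, 4.37e-09), Cd44 (2.38, 5.05e-08) and Nrp2, the coreceptor for VEGF-C (-1.59, 5.86e-08). With hCG they belonged to Cd44 (1.71, edgeR adjusted p = 1.62e-06), Ramp2, a subunit of the adrenomedullin receptor (-0.86, 3.69e-05), Ptprb, an endothelial phosphatase (-1.17, 3.79e-05), and S1pr1 (-1.31, 0.0001). The 2 hyaluronan receptors therefore stood in opposite order in the organs, with Cd44 at 328 ± 167 CPM in PBS cervix and 62.9 ± 13.9 CPM in PBS myometrium (SD, n = 10).

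The transcription factors were mixed. With PBS, 6 of 8 tested were higher in myometrium, such as Klf2, a factor induced by flow (log2 difference -2.01, edgeR adjusted p = 5.28e-07), Sox18, which acts upstream of Prox1 (-1.84, 3.63e-06), and Tbx1 (-2.18, 6.13e-06). Foxc1 was higher in cervix (2.89, edgeR adjusted p = 2.37e-10). With hCG, 5 of 9 were higher in myometrium, such as Sox18 (-1.64, edgeR adjusted p = 0.000184), Tbx1 (-2.22, 0.000311) and Klf2 (-1.28, 0.000712), and Foxc1 was again higher in cervix (2.88, edgeR adjusted p = 1.13e-08). Foxc1 is not restricted to lymphatic vessels and is made by many mesenchymal and epithelial cells. Tbx1 was scarce, at 0 in 3 of the 20 cervix libraries.

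Of 13 tested valve and junction genes, 10 were higher in myometrium with PBS, and of 14 with hCG 10, with none higher in cervix. Cdh5, VE-cadherin, had a log2 difference of -1.81 with PBS (edgeR adjusted p = 4.84e-08) and -1.82 with hCG (edgeR adjusted p = 1.95e-07). The junction proteins Esam (-1.35 and -0.95) and Clec14a (-1.37 and -0.89) were lower in cervix with both treatments, Cldn5 had -2.15 with PBS, and Ptpn14, a phosphatase tied to lymphatic growth, -1.01 with hCG (edgeR adjusted p at most 0.000636). The background for these counts is the 26.1% and 19.4% of all genes higher in myometrium, and 3 receptors and 2 junction genes of these lists are also among the 12 blood endothelial markers.

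With hCG, the lists stood near the background in the cervix. There 0 of 9 ligand genes, 1 of 15 receptors, 0 of 7 transcription factors and 2 of 13 valve and junction genes passed, against 8.91% of all genes. Gja1, which encodes the gap junction protein connexin 43 that is abundant in muscle and epithelium, fell from 639 ± 266 to 305 ± 119 CPM (SD, n = 10; log2 difference -1.06, edgeR adjusted p = 0.03). Tek rose from 18.2 ± 4.67 to 30.5 ± 14.1 CPM (0.77, edgeR adjusted p = 0.0431), and Fat4, an atypical cadherin, from 24.3 ± 10.5 to 47.0 ± 30.9 CPM (0.98, edgeR adjusted p = 0.0487). All 3 calls were lost without hCG cervix library 3, at log2 differences of -0.96 for Gja1, 0.69 for Tek and 0.99 for Fat4, and without the 4 PBS libraries high in Lars2, at -0.86, 0.72 and 1.10. That of Gja1 was lost also without PBS library 4, 7 or 8, and those of Tek and Fat4 each with 13 of the 20 libraries left out in turn (highest edgeR adjusted p 0.0872 and 0.104). With any 1 library left out, Gja1 stayed between -1.14 and -0.89, and Tek and Fat4 were lowest without hCG cervix library 5, at 0.62 and 0.67. Few genes of any kind passed without hCG cervix library 3 (8 genes) or without the 4 PBS libraries high in Lars2 (1 gene). The ligands stayed without a call, Vegfc at a log2 difference of 0.58 (edgeR adjusted p = 0.206) and Vegfd at 0.27 (edgeR adjusted p = 0.624). In the myometrium 0 of 9, 15, 9 and 14 genes passed, with Vegfc at 0.26 (edgeR adjusted p = 0.737) and Vegfd at -0.05 (edgeR adjusted p = 0.947). The difference between the hCG responses of the organs passed in edgeR for 0 of these 9, 15, 9 and 14 genes, with 0, 4, 1 and 1 at an unadjusted p under 0.05.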

How the data were processed

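RNA-seq libraries were made from total RNA with a strand-marking kit (TruSeq Stranded Total RNA), per the labels' protocols. The deposited table holds raw gene counts, made by the authors with TopHat2 on GRCm38 (mm10), per the submitters' processing notes; no source used here gives the counting tool, its strand setting or versions. It lists Entrez gene IDs, of which 23008 of 23079 matched RefSeq (GRCm38.p6); the 71 others hold 0.197% of counts. Groups were read from the titles, tissue and treatment labels. No pair of libraries of a group agreed within sampling noise (smallest chi-square 10.5 per gene).

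Comparisons used edgeR 4.0.16 (R 4.3.3; filterByExpr, TMM scaling, robust quasi-likelihood test, Benjamini-Hochberg adjustment over all genes tested), each with its own 20 libraries, and 1 fit of 40 libraries for the difference of responses. The test was checked on simulated counts, drawn independently for each gene and without shared differences between libraries other than their size. That check therefore does not cover calls that depend on libraries with RNA of neighbouring tissues. Levels are CPM after TMM scaling over 40 libraries, log2 CPM uses a prior count of 2, and exon lengths are GENCODE M21 unions. Intervals are at 95%. Levels relative to the blood endothelial markers, and pairs, were tested by two-sided permutation (100000 resamples, smallest p 2e-05, scipy 1.17.1). Alternatives were DESeq2 1.42.0, voom (limma 3.58.1), RLE scaling, other filters, a replicate block, a depth term, left-out libraries, another endothelial reference and Spearman's rho.

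All 6 genes passed the filter on low counts in every comparison. Promoters are RefSeq windows; motifs were counted over the 250 bases before the start and, alternatively, with the 50 after it (300 in all), where only the GGAA count of Reln changed, to 3. The named genes are the 6 members, the 4 with the smallest p per pathway list and comparison between organs, all list genes that passed with hCG, Vegfc and Vegfd, and the 5 genes most like each member. Of 151 listed genes 2 were not matched (Ccl21a, Muc16), and 1 further gene is not reported here. Members and lists were chosen with earlier results of these data known, including the direction of the PBS comparison of the organs.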

Additional observations from a re-analysis of the deposited data

Results flagged for a closer look

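Among 24 sets of 10 values (6 genes in 4 groups), 6 held a library far from the rest, with a gap to its neighbour above Dixon's 95% limit. For independent, normally distributed values chance gives about 1 in 20. The values here are CPM without logs, all 6 lay on the high side, and the sets share libraries. The 6 of 24 can therefore not be set against that share. hCG myometrium library 8 stood apart for 3 genes: Lyve1 was at 314.8 CPM (next library 218.9), Mmrn1 at 487.3 CPM (next 263.1) and Reln at 209.6 CPM (next 139.6). That library also had the highest summed blood endothelial markers (1035 CPM) and the lowest yolk sac and fetal liver markers (214.3 CPM) of its group. PBS cervix library R3 stood apart for Flt4, at 17.97 CPM (next 9.993), and for Mmrn1, at 71.0 CPM (next 44.7). It had the highest blood endothelial (497 CPM), smooth muscle (11930 CPM), fibroblast (15470 CPM) and macrophage (626 CPM) sums of the PBS cervix. PBS myometrium library 1 stood apart for Reln, at 168.6 CPM (next 106.0). With each of these libraries left out in turn, every lymphatic gene kept its call between the organs.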

How the results depend on the processing

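Between the organs, all 6 lymphatic genes were called in every alternative, from -2.87 to -0.70 with PBS (180 of 180 values) and from -2.71 to -0.58 with hCG (180 of 180); counts over all genes ran from 7512 to 9106 and from 4405 to 7577. The hCG counts moved much more. In cervix the 1331 genes became 2283 with DESeq2, 3424 with all 40 libraries in 1 fit (where 1 lymphatic gene, Lyve1, passed with an edgeR adjusted p of 0.0471), 508 with a depth term (198 higher, 310 lower), 242 in deeper and 0 in shallower libraries (776 at an unadjusted p under 0.05), 0 without hCG libraries 1, 3 and 5 (2833 unadjusted), 5 without 3 and 5, and 1 without PBS libraries 5 to 8. With 1 library left out they ran from 1 to 2065: 8 without hCG 3, 406 without 5, 542 without 7, 841 without 2, 869 without R3, 2005 without 9, 2065 without 10, 381 without PBS 10, 1 without PBS 4 or 7 and 2 without PBS 8. In myometrium the 2 genes became 384 with DESeq2, 4 with all 40 libraries, 1 without libraries over 1% Lars2, 0 without those above 1000 CPM of Afp (1089 unadjusted), and 1 to 137 with 1 library left out (137 without PBS 2, 90 without PBS 3, 31 without R3). The 55 genes whose responses differed became 566 (DESeq2), 571 (voom), 24 (no filter), 617 (7 cervix libraries out) and 0 to 678 with 1 left out (678 without PBS cervix library 6).

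No lymphatic response to hCG that changed sign was called. For Prox1 in cervix the log2 value was -0.0116 without a filter, -0.135 without hCG 1, 3 and 5, -0.5082 in shallower libraries and -0.1155 without hCG 3 and 5 (-0.1512 to 0.2085 with 1 left out); for Flt4 the last 3 were -0.0371, -0.127 and -0.1283 (-0.0047 to 0.3506). In myometrium Prox1 was -0.0007 (RLE), -0.0009 (DESeq2), -0.0116 (1 CPM in 10 libraries), -0.1391 (Lars2) and -0.0514 (Afp; -0.0888 to 0.0963 with 1 left out), and Flt4 -0.0971 (Lars2). For the difference of responses, Prox1 was -0.004 (RLE; -0.1625 to 0.2128), Flt4 -0.0423 with 7 libraries out (-0.0852 to 0.2816), Mmrn1 -0.1325 (voom) and -0.2269 (7 out), and Reln -0.0667 and -0.0329. Against Pecam1, Cdh5 and Tie1, Prox1 was -0.0315 and Flt4 -0.0172 (hCG, myometrium), Prox1 -0.5299 (PBS, organs; no longer called) and Pdpn 0.8019 and 0.8103 (called). By Spearman's rho, 3 of the 5 genes most like Lyve1, 2 for Prox1, 4 for Flt4, 2 for Pdpn, 3 for Mmrn1 and 3 for Reln were the same. The causes were not tested. The lowest count of Prox1 in a library was 10, so depth limits its values most among the 6 genes.

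Replicate numbers are shared between groups, but nothing in the labels ties a number to an animal. Same-numbered libraries deviated together (correlation over 0.1) in 4 of 9 pairs in cervix, 3 of 8 in myometrium, and 5 and 3 of 9 between organs (PBS, hCG). In these comparisons 2, 1, 3 and 2 libraries correlated best with their own number. A mouse received hCG or PBS, so only pairs between organs could share an animal. Their median correlation was 0.14 with PBS (highest 0.572) and 0.0594 with hCG (highest 0.324). For other numbers it was -0.0212 and -0.00625. Whether a number marks an animal cannot be decided from these values. With the replicate block the counts were 1185, 2, 8235 and 5805, and 0 for the difference of responses (3486 unadjusted), where Flt4 was at -0.0142. Alternatives by depth class, by Afp and without hCG 3 and 5 were chosen after seeing the data.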
